A study of Mus musculus with 4 samples.

Results

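Genes of the TGF-beta pathway were followed by symbol through single-cell RNA sequencing of ChAT-eGFP+ cells from the inguinal white fat of mice, 10 of the 31053 genes in the count tables. They were the ligands Tgfb1 and Tgfb3, the integrin subunit Itgb8, the receptors Tgfbr1 and Tgfbr2, the signal carrier Smad3, and Smad7, Ski, Skil and Pmepa1, which restrain the pathway. All 10 had UMIs (unique molecular identifiers, each standing for 1 captured transcript) in the gated cells, from 290 UMIs for Tgfb3 to 22227 for Tgfb1. These members were selected on pathway membership with earlier results of these data known, among them the fall of Tgfb3 in macrophages, so that p values and counts of members are given as the output of fits over all genes and are not independent evidence.

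TGF-beta ligands are secreted in a latent complex and bind no receptor until they are released from it. An integrin made of the alpha v subunit and the Itgb8 product releases them at the surface of regulatory T cells and dendritic cells (DCs). The freed ligand binds the type II receptor Tgfbr2, which joins and activates Tgfbr1, which in turn phosphorylates Smad2 and Smad3. Smad7 and Pmepa1 are switched on by the pathway and dampen it, whereas Ski and Skil hold Smad-bound genes silent. The pathway is known for its part in the differentiation of regulatory T cells, for switching B cells to IgA and, in white fat, for holding back the appearance of thermogenic adipocytes.

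The mice were male and carried ChATBAC-eGFP, a transgene that marks cells with eGFP under the regulatory sequence of Chat, the gene of the acetylcholine-making enzyme. They were 5 weeks old at the start and spent 3 weeks at 30 °C. The control group (30 °C, 2 libraries) then stayed at 30 °C for 4 h and the cold group (4 °C, 2 libraries) was moved to 4 °C for 4 h, after a spell at room temperature that the controls did not have, so that the 2 steps cannot be told apart. Each library held live eGFP+ cells sorted from the stromal vascular fraction of 4 pooled mice, with no fat cells. No eGFP- cells were sequenced, so that the values hold for cells with reporter signal, and pooling hides the spread between mice.

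The deposited libraries held 6272 to 6883 cells and 76058112 to 84468931 UMIs, and 21253 of 26654 cells passed the filters, with medians of 7520 to 8068 UMIs per library. Between 10 and 18 barcodes were shared by any pair of libraries. Cells were assigned to a type when enough of its marker genes had a UMI, which placed 91.5% of the cells in 1 lineage. The types were 8901 B cells, 587 plasma cells, 3241 T cells with a Foxp3 UMI (Foxp3-positive) and 3433 without (Foxp3-negative), 309 gamma-delta T cells, 923 group 2 innate lymphoid cells (ILC2), 930 macrophages, 287 DCs, 113 stromal cells and 83 lymphatic endothelial cells. A T cell whose Foxp3 transcript was not captured counts as Foxp3-negative, so that this class can hold regulatory T cells. Of 7619 T cells by lineage, the Foxp3 classes took those with a Trac UMI and no Trdc UMI. The gamma-delta class took those with Trdc and no Trac. The remaining T cells joined no class and are left out of sums over the gated cells. Macrophages numbered 159 and 177 at 30 °C and 437 and 157 at 4 °C, so that 1 cold library gave most of the cold macrophages. Chat itself was at 0 UMIs in the stromal cells of all 4 libraries and lay between 2.88 and 25.7 counts in each 1000000 UMIs of a cell type (CPM) in macrophages and between 50.6 and 77.9 CPM in B cells. UMIs were summed per library and cell type, levels are CPM of those sums, and members are compared within a gene, since a level of 1 gene says nothing of another gene's. Fold changes are on the log2 scale with their standard error, above 0 for a higher level in the cold, and adjusted p values come from edgeR over all genes tested in that cell type, with a threshold of 0.05.

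On GRCm38, per the GENCODE M21 annotation, the ligand genes lie at chr7:25687002-25705077 (Tgfb1, forward strand) and chr12:86056745-86079041 (Tgfb3, reverse strand). The receptor genes lie at chr4:47353222-47414931 (Tgfbr1, forward) and chr9:116084293-116175360 (Tgfbr2, reverse), Smad3 at chr9:63646767-63757994 (reverse) and Itgb8 at chr12:119158022-119238802 (reverse). Of the restraint genes, Ski lies at chr4:155154075-155222592 (reverse), Skil at chr3:31095058-31122577 (forward) and Pmepa1 at chr2:173224458-173276533 (reverse). All 10 are annotated as protein-coding. Promoter sequence from RefSeq (GRCm38.p6) was at hand for 6 members, Tgfb1, Tgfbr1, Tgfbr2, Smad3, Ski and Itgb8, and Tgfb3, Smad7, Skil and Pmepa1 are named only. The 250 bases before the start site are shown for the 3 of them whose levels rose at 4 °C, Tgfb1 and Tgfbr2 in macrophages and Tgfbr1 in Foxp3-positive T cells. Capitals mark CAGAC or its reverse complement GTCTG, the core letters of the Smad binding element, searched on both strands.
Tgfb1, chr7:25686752-25687001, forward strand: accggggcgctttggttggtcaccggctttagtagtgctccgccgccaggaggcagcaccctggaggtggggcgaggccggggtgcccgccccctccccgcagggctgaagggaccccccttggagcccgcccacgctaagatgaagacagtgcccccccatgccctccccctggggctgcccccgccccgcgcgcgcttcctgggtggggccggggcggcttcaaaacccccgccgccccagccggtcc
Tgfbr2, chr9:116175364-116175613, reverse strand: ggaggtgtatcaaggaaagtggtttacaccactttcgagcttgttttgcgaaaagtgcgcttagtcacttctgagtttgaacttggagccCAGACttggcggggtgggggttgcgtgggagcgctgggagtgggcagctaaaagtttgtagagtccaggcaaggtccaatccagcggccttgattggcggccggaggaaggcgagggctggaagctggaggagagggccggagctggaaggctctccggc
Tgfbr1, chr4:47352972-47353221, forward strand: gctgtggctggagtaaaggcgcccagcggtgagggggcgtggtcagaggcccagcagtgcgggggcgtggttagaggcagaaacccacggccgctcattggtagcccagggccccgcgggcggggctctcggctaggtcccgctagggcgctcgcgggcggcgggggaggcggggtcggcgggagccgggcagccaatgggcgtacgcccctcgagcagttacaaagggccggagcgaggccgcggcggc
Of these windows, that of Tgfbr2 held the letters CAGAC 1 time and those of Tgfb1 and Tgfbr1 did not hold them. A further start site listed for Tgfbr1, 32994 bases into the gene and with its window at chr4:47385966-47386215, held them 1 time, as did the window of Itgb8. Of 32851 promoter windows of the same length, 42.2% held them, so that a match in 1 window is common. The letters of the AP-1 site TGACTCA, found in 4.46% of windows, and of the cAMP response element TGACGTCA, found in 1.55%, were in none of the windows of the 6 members.

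Each member had its own order of cell types, shown in the plot of levels by cell type. Among the ligands, Tgfb1 was highest on average in macrophages, at 187 and 191 CPM at 30 °C against 275 and 275 CPM at 4 °C. ILC2 (135 to 186 CPM over the 4 libraries), Foxp3-positive T cells (131 to 192 CPM) and lymphatic endothelial cells (73.8 to 232 CPM) came next and overlapped, and the last overlapped with macrophages too. B cells held 42.2% of all Tgfb1 UMIs of the gated cells (95% Clopper-Pearson interval 41.6 to 42.9) through their number, at 89.0 to 128 CPM. Tgfb1 was lowest in plasma cells, DCs and stromal cells, all of them at or under 42.6 CPM in every library.

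**Figure D1:**
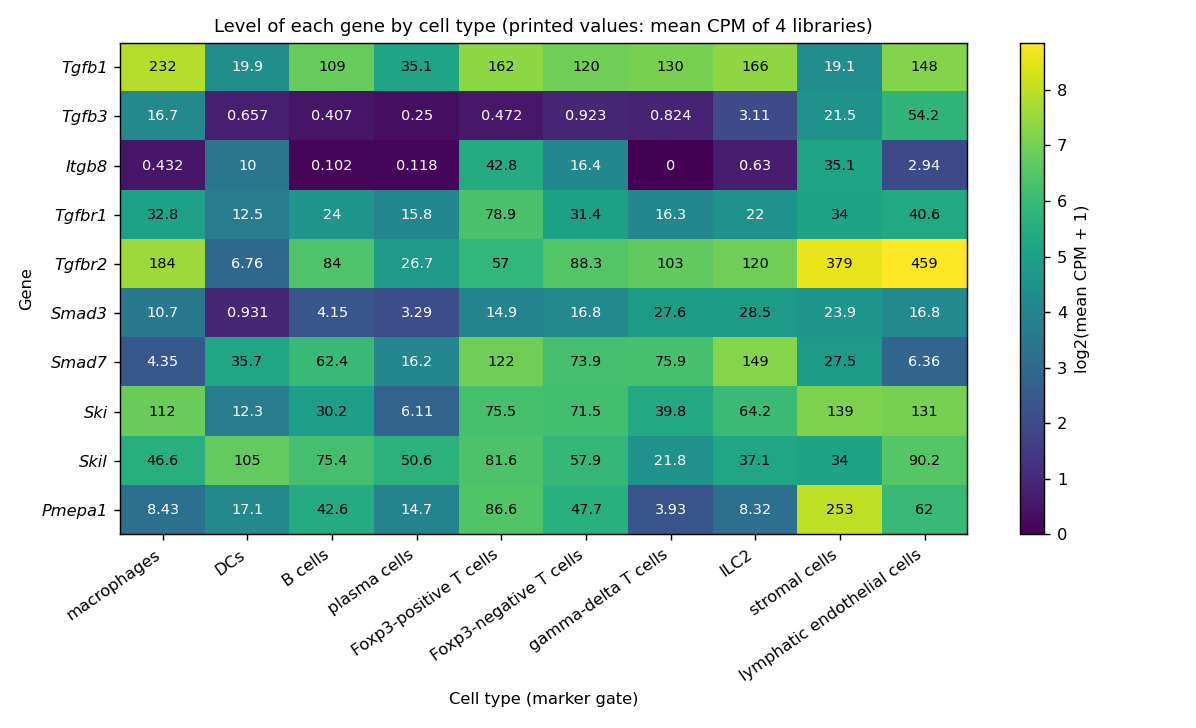
Mean level of each of the 10 genes (rows) in each marker-gated cell type (columns), with colour as log2(mean CPM + 1) and the mean CPM of the 4 libraries printed in each field. Itgb8 stands out in Foxp3-positive T cells (42.8 CPM) against B cells (0.102 CPM), with the stromal cells at 35.1 CPM, and Tgfb3 in lymphatic endothelial cells (54.2 CPM) and stromal cells (21.5 CPM). The 16.7 CPM of Tgfb3 in macrophages averages 32.9 CPM at 30 °C and 0.614 CPM at 4 °C.

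Tgfb3 was rare and uneven, with 113 of its 290 UMIs in macrophages (39.0%, interval 33.3 to 44.8) and 50 in the 83 lymphatic endothelial cells (17.2%, interval 13.1 to 22.1). Its level ran from 23.5 to 73.8 CPM in lymphatic endothelial cells and from 11.7 to 28.1 CPM in stromal cells, on sums of only 2 to 28 UMIs per library. In B cells it lay between 0.269 and 0.531 CPM and in Foxp3-positive T cells between 0.130 and 0.732 CPM. ILC2 lay in between, at 5.12 and 4.27 CPM at 30 °C against 0.580 and 2.46 CPM at 4 °C, which were 9, 8, 2 and 5 UMIs.

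Most Itgb8 came from T cells with an alpha-beta receptor, with 68.1% of its 1750 UMIs in Foxp3-positive T cells (interval 65.8 to 70.2) and 25.6% in Foxp3-negative T cells (interval 23.6 to 27.7). The few stromal cells reached similar levels, at 5.86 to 75.5 CPM on 1 to 31 UMIs per library. Its share of positive cells was 21.3% to 25.7% in Foxp3-positive T cells over the 4 libraries, with median depths of 5623 to 6511 UMIs. In B cells, which should lack the integrin, 0.0534% to 0.128% of cells had a UMI at median depths of 7809 to 8380. In gamma-delta T cells no UMI of Itgb8 was seen in any library, on sums of at most 1249412 UMIs, which allows up to 2.40 CPM in the deepest library at 3 counts. Intervals and such limits cover counting error only.

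Both receptors were lowest in DCs and differed most in their order in Foxp3-positive T cells, which ranked 1 of 10 cell types for Tgfbr1 and 8 for Tgfbr2. Tgfbr2 was highest in lymphatic endothelial cells (372 to 553 CPM) and stromal cells (212 to 568 CPM), which overlapped, followed by macrophages (116 to 240 CPM) and ILC2 (111 to 141 CPM), and lowest in DCs (3.83 to 10.5 CPM). Tgfbr1 was highest in Foxp3-positive T cells (57.6 to 99.7 CPM), where it overlapped with lymphatic endothelial cells (28.4 to 62.0 CPM), and lowest on average in DCs (6.13 to 17.5 CPM), which overlapped with plasma cells. Smad3 was highest in ILC2 (25.1 to 34.2 CPM) and gamma-delta T cells (19.7 to 36.0 CPM), which overlapped, and at 0 to 1.57 CPM in DCs.

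The restraint genes marked different cells again. Smad7, at chr18:75367529-75395935 (forward), was highest in ILC2 (137 to 155 CPM), ahead of Foxp3-positive T cells (106 to 137 CPM) in 4 of 4 libraries, and lowest on average in macrophages (2.40 to 8.07 CPM), which overlapped with lymphatic endothelial cells (0 to 16.6 CPM). Ski was highest in stromal cells (64.4 to 192 CPM), lymphatic endothelial cells (99.8 to 151 CPM) and macrophages (96.8 to 128 CPM), which overlapped, and lowest on average in plasma cells. Skil was highest on average in DCs (65.2 to 129 CPM), which overlapped with lymphatic endothelial cells (39.9 to 135 CPM), Foxp3-positive T cells and B cells, and lowest on average in gamma-delta T cells (18.7 to 27.5 CPM). Pmepa1 was highest in stromal cells (117 to 424 CPM), followed by Foxp3-positive T cells (78.1 to 96.9 CPM) and lymphatic endothelial cells (36.9 to 82.2 CPM), which overlapped, and lowest on average in gamma-delta T cells (0.800 to 8.48 CPM).

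Between 4 °C and 30 °C, members moved in macrophages, B cells and Foxp3-positive T cells, and none passed the threshold in the other 6 cell types tested. In macrophages 8 members passed the filter on low counts. Apart from Tgfb3, which is given as values only, 3 of the other 7 passed the threshold, where 16.4% of all 9204 genes tested did. In resident macrophages, a subset, it was likewise 3 of 7 apart from Tgfb3, against 17.7% of all genes. Among these was Pmepa1, which passed the filter on low counts only through its 30 °C libraries. B cells had 2 of 9 against 2.02%, and Foxp3-positive T cells 3 of 9 against 5.17%. The members' median change was 0.36 in macrophages, over all 8 members with Tgfb3 counted, 0.01 in B cells and 0.23 in Foxp3-positive T cells, beside medians over all genes near 0 in each. Nothing is read from these shares, since the members were chosen with results of this comparison known. With 2 pools of mice per temperature, p values measure the spread between pools.

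**Figure D2:**
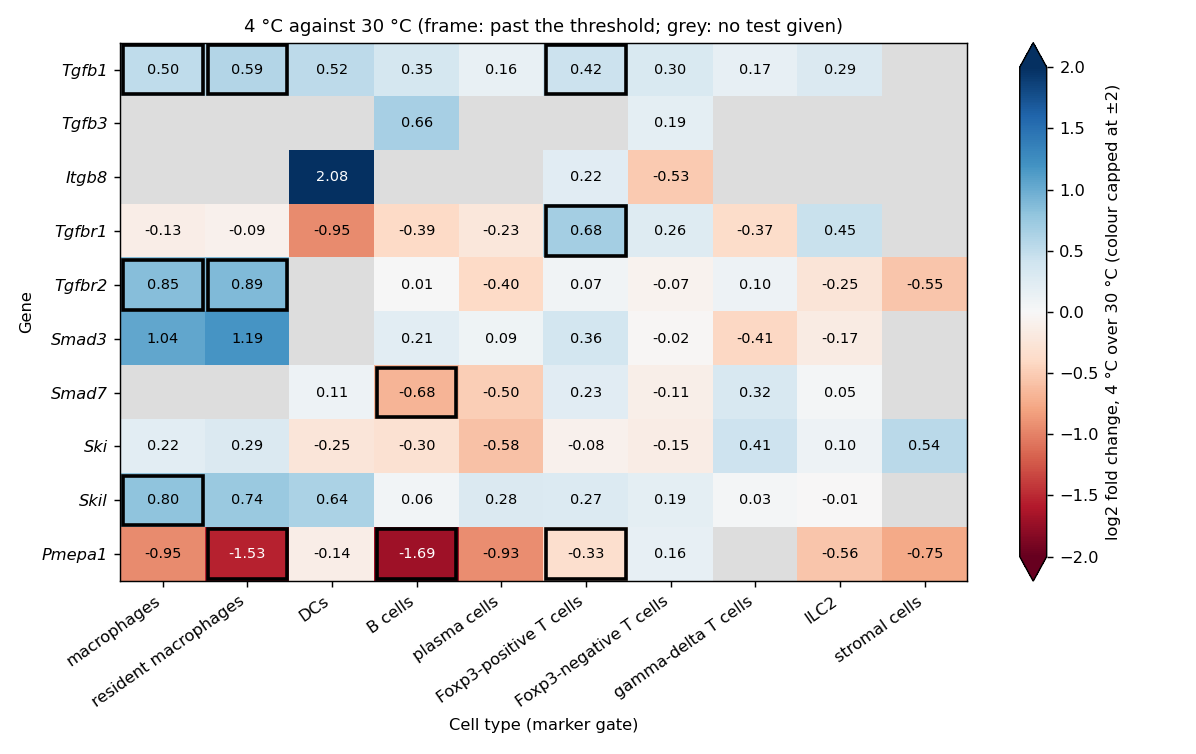
Fold change of each gene (rows) between 4 °C and 30 °C in each cell type tested (columns), on the log2 scale, with blue for higher at 4 °C and red for lower, colour ending at 2 in both directions. Frames mark fits past the threshold of 0.05 on the adjusted p value (edgeR) and grey fields have no test, among them Tgfb3 in macrophages, which is given as values by library. Tgfb1 is framed in macrophages, their resident subset and Foxp3-positive T cells, and Pmepa1 in resident macrophages, B cells and Foxp3-positive T cells. In resident macrophages Pmepa1 passed the filter on low counts only through its 30 °C libraries.

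In macrophages at 4 °C, the ligand Tgfb1 and the type II receptor Tgfbr2 were higher while Tgfb3 was nearly gone. Tgfb3 had 55 and 55 UMIs at 30 °C (34.1 and 31.6 CPM) and 2 and 1 UMIs at 4 °C (0.534 and 0.695 CPM), a ratio of 56.8 with a counting interval of 18.9 to 280. Both cold libraries thus lay near the level in B cells. Tgfb3 passed the filter on low counts only through its 30 °C libraries, and since its fall was known beforehand it is given here as values without a test. A Tgfb3 UMI was found in 30 of 159 and 28 of 177 macrophages at 30 °C (18.9%, interval 13.1 to 25.8, and 15.8%, interval 10.8 to 22.0) and in 2 of 437 and 1 of 157 at 4 °C (0.458%, interval 0.0555 to 1.64, and 0.637%, interval 0.0161 to 3.50).

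The share of Tgfb3-positive macrophages was also taken at equal depth. The cold macrophages held only 3 Tgfb3 UMIs in all, so that shares near 0 after the reduction were close to fixed in advance. The part of depth was not tested. Median depth was 9633 and 9414 UMIs at 30 °C and 8156 and 8711 at 4 °C, and after every cell was reduced to 3000 UMIs, which left out 25 of the 336 macrophages at 30 °C and 57 of the 594 at 4 °C, the shares were 12.2% and 9.82% at 30 °C. At 4 °C the reduced shares were 0 of 398 and 0 of 139 cells, which allows up to 0.754% and 2.16%. The most UMIs in 1 macrophage at 30 °C was 6. In B cells, which should lack Tgfb3 and were of similar depth (medians of 7809 to 8380 UMIs), 0.255% to 0.490% of cells had a UMI, a share that the cold macrophages did not exceed beyond their intervals.

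Tgfb1 rose in macrophages from 187 and 191 CPM to 275 and 275 CPM, a log2 change of 0.50 ± 0.10 (adjusted p = 0.00677, edgeR). Both cold libraries lay above both 30 °C libraries. Tgfbr2, the receptor that binds the ligand first, rose from 143 and 116 CPM to 240 and 239 CPM, by 0.85 ± 0.12 (adjusted p = 0.000575). The change stood in all 4 fits that left out 1 library, for both genes. Tgfbr1, its partner, was at 36.6 and 29.9 CPM at 30 °C against 28.5 and 36.2 CPM at 4 °C, with overlapping groups and a change of -0.13 ± 0.20 (adjusted p = 0.737).

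Of the other members in macrophages, Skil rose from 32.3 and 32.2 CPM to 47.5 and 74.4 CPM, by 0.80 ± 0.23 (adjusted p = 0.0355). The cold libraries differed from each other by more than those at 30 °C did, and the adjusted p of Skil was 0.111, 0.0892 and 0.0918 without replicate 1 at 30 °C, replicate 2 at 30 °C and replicate 2 at 4 °C and 0.103 in DESeq2. Smad3 was at 8.07 and 5.75 CPM at 30 °C against 14.9 and 13.9 CPM at 4 °C, on 10 to 56 UMIs per library, and did not pass the threshold (change 1.04 ± 0.33, adjusted p = 0.0557), which it did with no filter on low counts, with the mitochondrial limit of 15%, with clusters in place of gates and without cycling cells (adjusted p of 0.0294 to 0.0422). Pmepa1 was at 10.5 and 12.1 CPM against 6.94 and 4.17 CPM (change -0.95 ± 0.37, adjusted p = 0.112) and Ski at 96.8 and 109 CPM against 128 and 115 CPM (change 0.22 ± 0.12, adjusted p = 0.288). Smad7 had 5 to 13 UMIs per library and Itgb8 0 to 2, so that both fell to the filter on low counts.

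**Figure D3:**
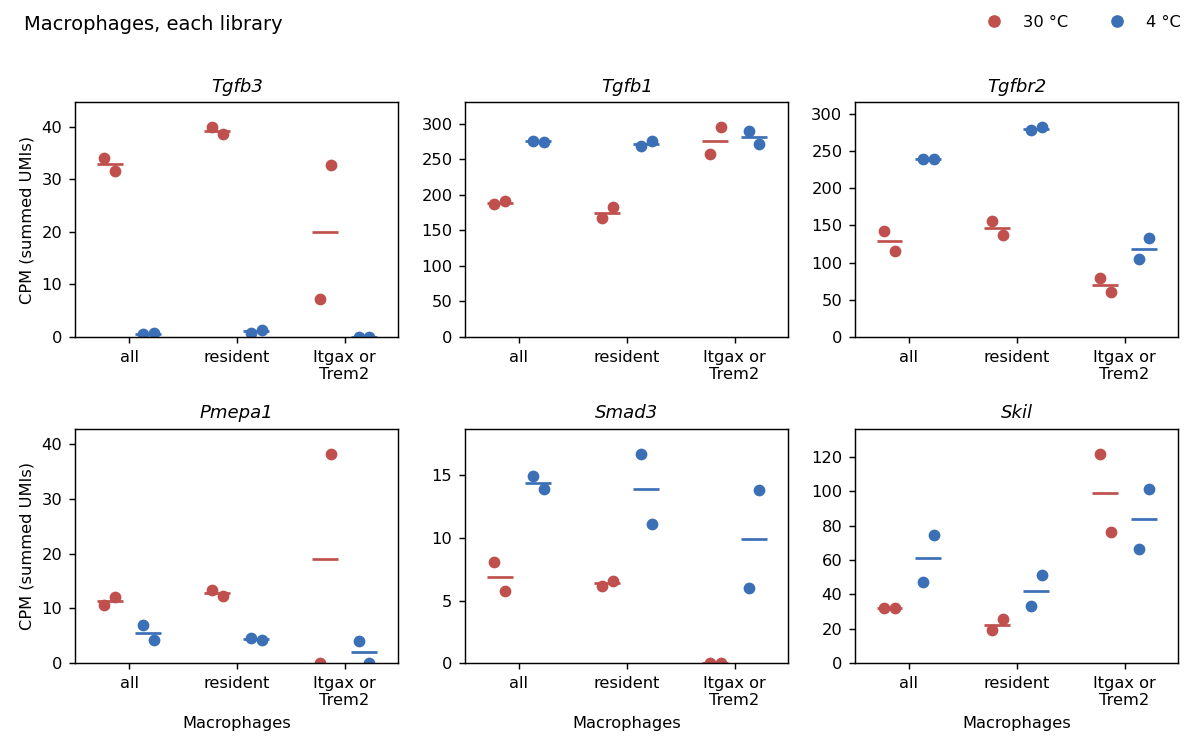
Level of 6 genes in all macrophages, in the resident subset and in the Itgax or Trem2 subset, in CPM of summed UMIs, with 1 point per library, a bar at the mean of 2 libraries, red for 30 °C and blue for 4 °C. Tgfb3 lies between 31.6 and 39.9 CPM at 30 °C and under 1.40 CPM at 4 °C in all and resident macrophages, and Tgfbr2 is higher at 4 °C in all 3 columns.

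The 607 resident macrophages, which carry Mrc1 and Folr2 and neither Itgax nor Trem2, are a subset of the macrophages above, with Tgfb1, Tgfbr2 and Pmepa1 past the threshold. Tgfb3 was at 39.9 and 38.7 CPM at 30 °C against 0.836 and 1.39 CPM at 4 °C. Tgfb1 rose from 167 and 183 CPM to 268 and 275 CPM (0.59 ± 0.12, adjusted p = 0.00292) and Tgfbr2 from 156 and 137 CPM to 278 and 282 CPM (0.89 ± 0.13, adjusted p = 8.8e-05). Pmepa1, a target and brake of the pathway, was at 13.3 and 12.3 CPM at 30 °C against 4.60 and 4.17 CPM at 4 °C. It passed the filter on low counts only through its 30 °C libraries. The call (-1.53 ± 0.46, adjusted p = 0.0292, edgeR) is thus no support for a fall. That call rested on 13, 13, 11 and 3 UMIs, and the adjusted p was 0.254 and 0.214 without replicates 1 and 2 at 30 °C and 0.291 and 0.174 without replicates 1 and 2 at 4 °C, and 0.424 in DESeq2. Skil was at 19.4 and 25.5 CPM against 33.0 and 51.4 CPM and did not pass the threshold (adjusted p = 0.102), though it did without replicate 1 at 4 °C (adjusted p = 0.0175).

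The 87 macrophages with Itgax or Trem2, a pattern of lipid-handling macrophages in fat, numbered 11 and 15 at 30 °C and 42 and 19 at 4 °C. With under 20 cells in some libraries they were not tested between temperatures, and their levels are given as values. Tgfb1 lay between 258 and 294 CPM in all 4 libraries, with overlapping groups. Tgfbr2 was at 78.7 and 60.0 CPM at 30 °C against 105 and 133 CPM at 4 °C, and Tgfb3 at 7.16 and 32.7 CPM, which were 1 and 6 UMIs, against 0 and 0. Resident macrophages were compared with these cells, with library as a factor and without that minimum, so that the fits rest on few cells. Against these cells, resident macrophages had less Tgfbr1 (log2 difference -2.44 ± 0.32, adjusted p = 4.98e-05) and less Skil (-1.54 ± 0.28, adjusted p = 0.000922) and more Tgfbr2 (1.09 ± 0.20, adjusted p = 0.000841). Tgfbr1 had 31 UMIs at 30 °C and 47 at 4 °C in resident macrophages. It passed the filter on low counts only through the Itgax or Trem2 cells. Its fit is thus no support for a difference. Ski was higher in resident macrophages by 0.78 ± 0.24 (adjusted p = 0.0348), a call that was lost without replicate 1 at 30 °C (adjusted p = 0.0764) and without replicate 1 or 2 at 4 °C (adjusted p = 0.114 and 0.212), and with DESeq2, with strict gates and without cycling cells (adjusted p of 0.0663 to 0.0889). These were 4 of 5 members tested, where 16.9% of all genes passed, and Tgfb1 did not differ past the threshold (-0.44 ± 0.18, adjusted p = 0.111).

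Within macrophages other markers moved too. The summed level of the 5 macrophage markers was 14325 and 14841 CPM at 30 °C against 13096 and 12825 CPM at 4 °C, and that of the 5 DC markers was 9.93 and 7.48 CPM against 20.3 and 24.3 CPM. The 5 markers each of stromal and lymphatic endothelial cells, the other cells with Tgfb3, summed to 31.6 and 21.3 CPM against 20.8 and 20.9 CPM and to 1.24 and 0.575 CPM against 1.87 and 3.48 CPM. The part of these levels in the members' changes was not tested. With strict gates, which left out cells with more than 1 marker of another lineage, the change was 0.57 for Tgfb1 (adjusted p = 0.0112, edgeR). It was 0.98 for Tgfbr2 (adjusted p = 0.000799). These gates kept 99 of 159 and 120 of 177 macrophages at 30 °C and 344 of 437 and 111 of 157 at 4 °C. They do not test the part of the marker levels.

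In B cells the restraint genes Pmepa1 and Smad7 fell at 4 °C, and Ski and Skil did not pass the threshold. Pmepa1 fell from 61.9 and 66.2 CPM (1298 and 1476 UMIs) to 23.5 and 18.8 CPM (442 and 456 UMIs), by 1.69 on the log2 scale with a standard error of 0.12 (adjusted p = 0.00389). The 2 temperatures were far apart beside the spread within each, and the call stood without any single library. Smad7 fell from 76 and 74 CPM to 43.9 and 55.5 CPM, by 0.68 with a standard error of 0.11 (adjusted p = 0.0468), and the call was lost without replicate 1 (adjusted p = 0.226) or replicate 2 at 4 °C (adjusted p = 0.0937) and with strict gates (adjusted p = 0.0505). A Pmepa1 UMI was found in 32.0% and 34.8% of B cells at 30 °C and in 16.9% and 13.6% at 4 °C, and in 15%, 16.7%, 6.60% and 4.46% once each cell was reduced to 3000 UMIs. The number of members called moved when 1 library was left out, and the share of all genes called in those fits is not given.

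The fall of Pmepa1 was seen in both kinds of B cell that could be gated. In B cells with an Ighd UMI, the marker of naive cells, Pmepa1 was at 61.4 and 68.5 CPM at 30 °C against 21.4 and 16.6 CPM at 4 °C. In germinal centre B cells it was at 53.1 and 57.4 CPM against 34.1 and 27.3 CPM. Smad7 was at 81.1 and 78.1 CPM against 44.9 and 58.8 CPM in the former and at 76.6 and 73.1 CPM against 47.2 and 49.1 CPM in the latter. In plasma cells the groups overlapped for Smad7, at 13.4 and 25 CPM against 11.2 and 15 CPM, and Pmepa1 was at 14.8 and 24.0 CPM against 5.15 and 14.7 CPM. These subsets were not tested on their own, apart from plasma cells. Of the 587 gated plasma cells, 358 sat in a plasma cell cluster and 222 in clusters of B cells, and 41.2% had only the minimum number of markers.

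**Figure D4:**
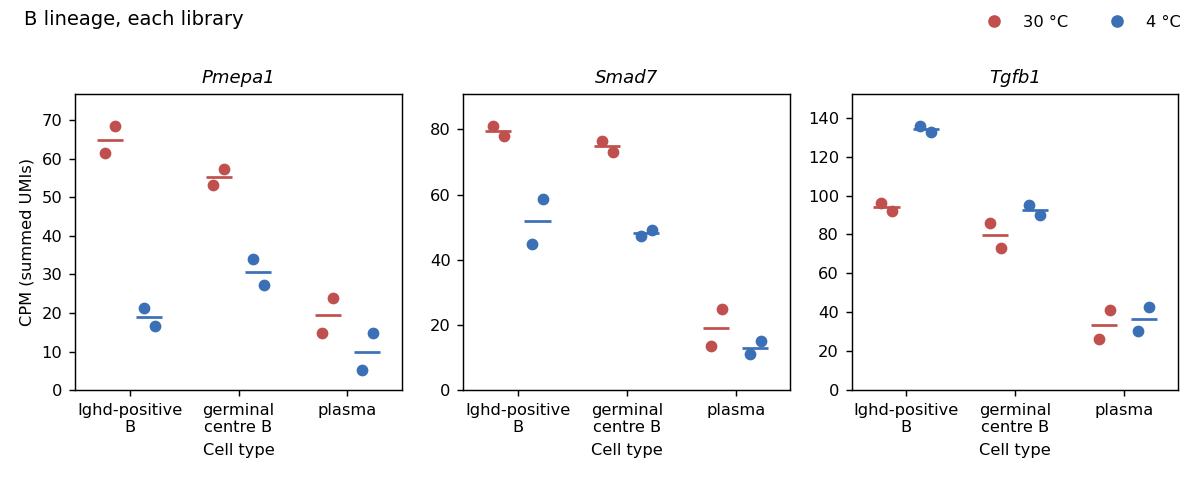
Level of Pmepa1, Smad7 and Tgfb1 in Ighd-positive B cells, germinal centre B cells and plasma cells, in CPM of summed UMIs, with 1 point per library, a bar at the mean of 2 libraries, red for 30 °C and blue for 4 °C. Pmepa1 lies between 53.1 and 68.5 CPM at 30 °C and between 16.6 and 34.1 CPM at 4 °C in both B cell types.

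The other members in B cells did not pass the threshold. Tgfb1 was at 95.9 and 89.0 CPM at 30 °C against 128 and 123 CPM at 4 °C (0.35 ± 0.07, adjusted p = 0.0828), with no overlap. It passed in DESeq2 (adjusted p = 0.0266), with no filter, with the mitochondrial limit of 15%, without cycling cells and without replicate 1 at 30 °C. Tgfb1 in Ighd-positive B cells was at 96.2 and 92.2 CPM against 136 and 132 CPM. Tgfbr1 was at 26.5 and 26.4 CPM against 23.2 and 19.9 CPM (-0.39 ± 0.10, adjusted p = 0.127), past the threshold with no filter, without cycling cells and without replicate 2 at 30 °C (adjusted p of 0.0204 to 0.0259), and Tgfbr2 at 78.3 to 89.5 CPM in all 4 libraries (0.01 ± 0.07, adjusted p = 0.969). Ski, Skil, Smad3 and Tgfb3 had adjusted p values between 0.345 and 0.709, with Ski past the threshold without cycling cells (0.0442) and without replicate 2 at 30 °C (0.00551). Itgb8 had 1 to 3 UMIs per library and was not tested. The summed B cell markers were 5692 and 5622 CPM at 30 °C against 6220 and 6432 CPM at 4 °C, and their part in these values was not tested. Germinal centre B cells numbered 81 and 292 at 30 °C and 130 and 242 at 4 °C.

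In Foxp3-positive T cells the type I receptor and the ligand rose. Tgfbr1 went from 60.6 and 57.6 CPM to 97.7 and 99.7 CPM, by 0.68 ± 0.08 (adjusted p = 0.00103), a call that stood without any single library. Tgfb1 went from 139 and 131 CPM to 192 and 187 CPM, by 0.42 ± 0.07 (adjusted p = 0.0063), with adjusted p values of 0.102 and 0.161 without replicate 1 and replicate 2 at 30 °C. Pmepa1 fell from 92.6 and 96.9 CPM to 78.8 and 78.1 CPM, by 0.33 with a standard error of 0.08 (adjusted p = 0.0387), and that call was lost without replicate 1 (adjusted p = 0.257) or replicate 2 at 30 °C (adjusted p = 0.282), in DESeq2 (adjusted p = 0.145) and with clusters in place of gates (adjusted p = 0.0807). Here too the number of members called moved when 1 library was left out. The summed T cell markers were 2463 and 2498 CPM at 30 °C against 2842 and 2919 CPM at 4 °C, and their part in these changes was not tested.

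Smad7, which the pathway switches on, was at 106 and 113 CPM against 132 and 137 CPM in Foxp3-positive T cells and did not pass the threshold (0.23 ± 0.07, adjusted p = 0.105). Itgb8 was at 36.7 and 40.6 CPM against 45.6 and 48.3 CPM (0.22 ± 0.10, adjusted p = 0.227). Tgfbr2 was at 51.9 and 56.8 CPM against 57.8 and 61.5 CPM (0.07 ± 0.09, adjusted p = 0.708). Ski, Skil and Smad3 had adjusted p values between 0.110 and 0.645, with Skil past the threshold without replicate 1 at 4 °C (0.0209). Tgfb3 was too low to be tested.

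In Foxp3-negative T cells 10 members were tested and 0 passed in edgeR, where 3.26% of all genes did, and 0 passed in DESeq2. An unadjusted p under 0.05 (edgeR) was found for 4 members, beside 1963 of all 10963 genes tested. Tgfb1 was at 108 and 104 CPM against 147 and 122 CPM (0.30 ± 0.10, adjusted p = 0.133). Itgb8 was at 19.1 and 18.9 CPM against 11.1 and 16.4 CPM (-0.53 ± 0.18, adjusted p = 0.150). With no filter on low counts Tgfb1 and Itgb8 passed, and the share of all genes that passed in that fit is not given. Tgfbr2 and Smad7 lay between 84.8 and 92.9 CPM and between 68.9 and 79.5 CPM in all 4 libraries.

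**Figure D5:**
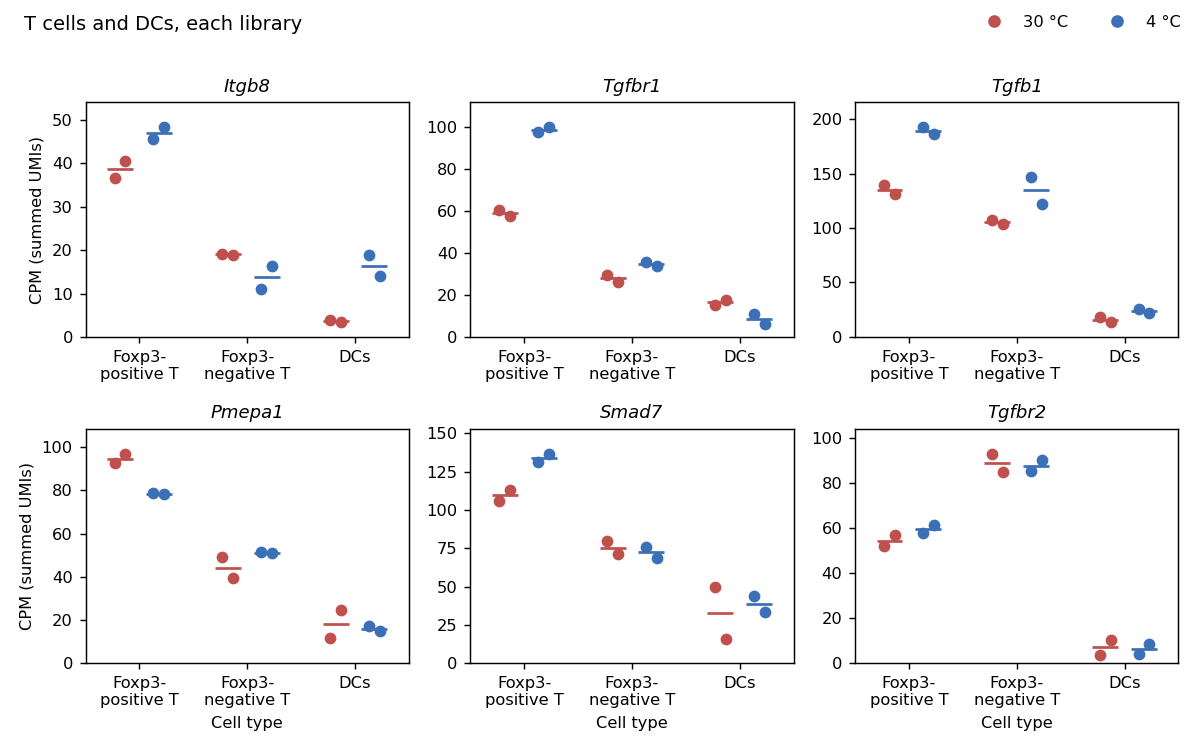
Level of 6 genes in Foxp3-positive T cells, Foxp3-negative T cells and DCs, in CPM of summed UMIs, with 1 point per library, a bar at the mean of 2 libraries, red for 30 °C and blue for 4 °C. Tgfbr1 in Foxp3-positive T cells lies at 57.6 and 60.6 CPM at 30 °C and at 97.7 and 99.7 CPM at 4 °C, and Itgb8 in DCs at 3.51 and 3.83 CPM against 14.0 and 18.8 CPM.

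Set against Foxp3-negative T cells, with library as a factor, Foxp3-positive T cells differed in 7 of 9 members tested, where 35.4% of all genes did. The split rests on the capture of Foxp3 and does not set regulatory T cells apart from all others. The integrin subunit Itgb8 was higher by 1.41 ± 0.13 (adjusted p = 1.78e-06) and Tgfbr1 by 1.31 ± 0.08 (adjusted p = 3.12e-08). Pmepa1 (0.83 ± 0.09), Smad7 (0.71 ± 0.07), Skil (0.48 ± 0.05) and Tgfb1 (0.42 ± 0.05) were higher as well, with adjusted p values of at most 2.06e-05. Tgfbr2 was lower, by 0.64 with a standard error of 0.06 (log2 difference -0.64, adjusted p = 1.6e-06), at 51.9 to 61.5 CPM against 84.8 to 92.9 CPM. Ski (0.07 ± 0.06, adjusted p = 0.407) and Smad3 (-0.18 ± 0.11, adjusted p = 0.237) did not pass the threshold.

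B cells against Foxp3-negative T cells differed in 6 of 9 members, where 65.2% of all genes did. B cells had less Smad3 (-1.64 ± 0.11, adjusted p = 1.44e-06) and less Ski (-0.88 ± 0.08, adjusted p = 8.39e-06). They had more Skil (0.75 ± 0.06, adjusted p = 6.46e-06), and Tgfbr2 (0.30 ± 0.05) and Tgfb1 (0.23 ± 0.05) were higher by less. Itgb8 was at 0.0531 to 0.135 CPM in B cells against 11.1 to 19.1 CPM in these T cells. It passed the filter on low counts only through the T cells. Its fit (-6.83 ± 0.21, adjusted p = 8.27e-09, edgeR) is thus no support for a difference, though it is 1 of the 6. Pmepa1, Smad7 and Tgfbr1 did not differ past the threshold, though Smad7 did without replicate 1 at 4 °C (adjusted p = 0.0318).

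The DCs, which carry Fscn1 and Ccr7 as mature migrating DCs do, differed from macrophages past the threshold in 7 of 7 members tested, where 58.7% of all genes passed. They had less Tgfbr2 (-4.46 ± 0.29, adjusted p = 2.93e-07), less Tgfb1 (-3.08 ± 0.16, adjusted p = 4.98e-08), less Ski (-2.77 ± 0.22, adjusted p = 1.21e-06) and less Tgfbr1 (-1.02 ± 0.28, adjusted p = 0.00868). Smad7 was higher in DCs by 3.62 ± 0.32 (adjusted p = 2.9e-06), Skil by 1.65 ± 0.17 (adjusted p = 1.03e-05) and Pmepa1 by 1.51 ± 0.31 (adjusted p = 0.00159). Tgfbr2, Tgfbr1 and Ski passed the filter on low counts only through the macrophages, and Smad7 and Pmepa1 only through the DCs. The fits of these members are thus no support for a difference. As values, Tgfb1, Tgfbr1, Tgfbr2 and Ski were lower in every DC library than in any macrophage library. Smad7 was higher, at 15.8 to 49.8 CPM against 2.40 to 8.07 CPM. The ranges of Skil and Pmepa1 overlapped.

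Between temperatures, 0 of 7 members passed in DCs in edgeR, where 2.47% of all genes did, and 0 passed in DESeq2. An unadjusted p under 0.05 (edgeR) was found for 2 members, beside 954 of all 6850 genes tested. Itgb8 was at 3.83 and 3.51 CPM at 30 °C against 18.8 and 14.0 CPM at 4 °C, with no overlap. It passed the filter on low counts only through its 4 °C libraries, so that its fit is no support for a rise. Itgb8 missed the threshold (2.08 ± 0.58, adjusted p = 0.0787, edgeR) and passed it with no filter on low counts (adjusted p = 0.0269). Its UMIs came from few cells, 24 UMIs in 6 of 96 DCs and 16 UMIs in 4 of 80 DCs at 4 °C, of which 16 and 8 sat in 1 cell of each library. The share of DCs with an Itgb8 UMI was 4.55% (interval 0.947 to 12.7) and 4.44% (interval 0.543 to 15.1) at 30 °C and 6.25% (interval 2.33 to 13.1) and 5.00% (interval 1.38 to 12.3) at 4 °C, so that a difference in the share of positive cells was not detectable at this number of cells. Skil was at 65.2 and 98.2 CPM against 129 and 128 CPM (0.64 ± 0.20, adjusted p = 0.125). Over the alternative fits, the log2 change of Skil ran from 0.35 to 0.94.

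In ILC2, 0 of 8 members passed in edgeR, where 6.07% of all genes did, and 0 passed in DESeq2. An unadjusted p under 0.05 (edgeR) was found for 1 member, beside 1761 of all 8794 genes tested. Tgfb1 was at 157 and 135 CPM against 186 and 186 CPM there (0.29 ± 0.11, adjusted p = 0.151), and 57.4% of the ILC2 had only the minimum number of markers. Gamma-delta T cells had 0 of 7 members past the threshold in edgeR, where 1.09% of all genes passed, and 0 in DESeq2, on 111, 112, 63 and 23 cells per library. No member there had an unadjusted p under 0.05 (edgeR), beside 850 of all 7126 genes tested. Plasma cells had 0 of 8 where 0% of all genes passed, and stromal cells 0 of 3 where 0.247% did, with 0 members at an unadjusted p under 0.05 and 0 in DESeq2 in both. Of all genes, 344 of 9213 in plasma cells and 328 of 3237 in stromal cells had an unadjusted p under 0.05 (edgeR). Pmepa1 in stromal cells ran from 424 and 217 CPM at 30 °C to 256 and 117 CPM at 4 °C, with overlapping groups. Lymphatic endothelial cells, at 9 to 39 cells per library, were not tested.

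The change between temperatures was compared across cell types with an interaction term. The rise of Tgfbr2 was larger in macrophages than in B cells by 0.88 ± 0.15 (adjusted p = 0.00518) and than in Foxp3-negative T cells by 0.95 ± 0.15 (adjusted p = 8.26e-07). Apart from Tgfb3, which is given as values only, it was the 1 member of 8 to pass in the first comparison, where 4.08% of all genes did, and the 1 of 9 in the second, where 7.9% did. The rise of Tgfb1 did not differ past the threshold between macrophages and B cells (0.18 ± 0.15, adjusted p = 0.652) or Foxp3-negative T cells (0.21 ± 0.14, adjusted p = 0.488). The fall of Pmepa1 in B cells did not differ past the threshold from its change in macrophages (macrophages minus B cells 0.72 ± 0.32, adjusted p = 0.318). Between Foxp3-positive and Foxp3-negative T cells 1 of 10 members differed, Itgb8 (0.75 ± 0.18, adjusted p = 0.0498), where 0.891% of all genes did, and that call was lost without replicate 1 at 30 °C (adjusted p = 0.156) or replicate 1 at 4 °C (adjusted p = 0.247), with the mitochondrial limit of 15%, with strict gates and without cycling cells. The rise of Tgfbr1 in Foxp3-positive T cells did not differ past the threshold from its change in Foxp3-negative T cells (0.42 ± 0.13, adjusted p = 0.187), and did with clusters in place of gates (adjusted p = 0.0497).

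The wider pathway was read from a list of 61 further genes, chosen for their roles. In macrophages 41 of them were tested, of which 5 rose, 7 fell and 29 did not pass, a called share of 29.3% beside 16.4% of all genes, with a median change of 0.02. Among genes of latent storage and release, Nrros, which tethers latent TGF-beta on macrophages, rose from 192 and 194 CPM to 316 and 327 CPM (0.69 ± 0.10, adjusted p = 0.00089). Itgav, the alpha v partner of Itgb8, rose from 14.3 and 12.7 CPM to 25.9 and 26.4 CPM (0.91 ± 0.24, adjusted p = 0.023), and Mmp9, a protease that can release latent ligand, by 0.45 ± 0.10 (adjusted p = 0.0091). Thbs1, the gene of thrombospondin 1, another activator, was at 22 and 23 UMIs at 30 °C (13.7 and 13.2 CPM) and 1 and 3 UMIs at 4 °C (0.267 and 2.09 CPM). Thbs1 passed the filter on low counts only through its 30 °C libraries, so that it is given as values, though it is 1 of the 7 counted as lower.

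Downstream of the receptors, the shared partner Smad4 fell in macrophages from 80.7 and 75.9 CPM to 51.5 and 31.3 CPM (-0.87 ± 0.19, adjusted p = 0.01). The receptors Acvr2a (-1.12 ± 0.29, adjusted p = 0.023) and Bmpr2 (-0.52 ± 0.13, adjusted p = 0.022), which bind activins and bone morphogenetic proteins, fell as well. Of 11 target genes tested, 2 rose and 3 fell. Cyr61 fell from 34.8 and 54.6 CPM to 6.14 and 10.4 CPM (-2.62 ± 0.32, adjusted p = 0.00023), Cdkn1a, a brake on the cell cycle, from 388 and 324 CPM to 143 and 122 CPM (-1.45 ± 0.12, adjusted p = 2.3e-05), and Tgfbi by 0.39 on the log2 scale (adjusted p = 0.018). Junb and Gadd45b, which many stimuli induce, rose by 0.50 ± 0.13 (adjusted p = 0.021) and 0.87 ± 0.26 (adjusted p = 0.042). In resident macrophages 5 of 32 genes of the list rose and 7 fell, 37.5% beside 17.7% of all genes, and Id2 (-1.38 ± 0.28, adjusted p = 0.0022) and Klf10 (0.61 ± 0.18, adjusted p = 0.03) were called there.

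In the other cell types between 0% and 10.7% of the list passed. In B cells 1 of 42 did (2.38% beside 2.02% of all genes), the target gene Id2, which fell from 49.3 and 43.2 CPM to 27.1 and 24.6 CPM (-0.93 ± 0.10, adjusted p = 0.016). Foxp3-positive T cells had 2 of 43 up and 2 down (9.30% beside 5.17%), Gadd45b (0.95 ± 0.09) and Junb (0.54 ± 0.05) up, Id2 (-0.41 ± 0.07) and Ldlrad4 (-0.48 ± 0.11), a membrane inhibitor of the pathway, down. In Foxp3-negative T cells Id3 and Junb rose and Itgb3 fell, 3 of 42 (7.14% beside 3.26%). ILC2 had 2 of 33 (6.06% beside 6.07%), with Smurf2, a ligase that marks the receptors for breakdown, down from 34.2 and 26.7 CPM to 12.2 and 13.3 CPM (-1.33 ± 0.23, adjusted p = 0.0043) and Gadd45b up. In DCs 3 of 28 rose (10.7% beside 2.47%), among them Cdkn1a, from 120 and 137 CPM to 413 and 402 CPM (1.63 ± 0.15, adjusted p = 9.8e-06), the gene that fell in macrophages, a difference that was not tested. Gamma-delta T cells had 1 of 26 (3.85% beside 1.09%), Itgae, the alpha E integrin of cells held in epithelia, at 160 and 133 CPM against 248 and 283 CPM (0.79 ± 0.18, adjusted p = 0.033). Plasma cells and stromal cells had 0 of 29 and 0 of 28.

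The genes whose level followed each member most closely over the 20 means of cell type and temperature were also listed, by Pearson's r of log2(CPM + 1). For Tgfb1 they were Gng2, Nfatc2 and Exosc10 (r = 0.926 to 0.910), for Tgfb3 Map3k6, Slc10a6 and Stx5a (r = 0.949 to 0.930) and for Tgfbr2 Emc10, Atg2b and Eif4g3 (r = 0.928 to 0.921). For Ski they were Prdx5, Acly and Dpysl2 (r = 0.959 to 0.936), for Smad3 Ppp1r14b, Sumf2 and Trp53i13 (r = 0.928 to 0.917) and for Itgb8 Nrn1, Ggt7 and Rasl11a (r = 0.931 to 0.881). Lower values were found for Smad7 (Mutyh, Phf11c and Gm45509, r = 0.891 to 0.882), Skil (Zmat1, Cerkl and Ppp4r2, r = 0.898 to 0.820), Pmepa1 (Twsg1, Id3 and Itm2a, r = 0.889 to 0.831) and Tgfbr1 (Gbp7, Agfg1 and Med7, r = 0.860 to 0.834). The 20 points share their libraries in pairs of temperatures and differ in depth, and the values describe likeness among genes with at least 200 UMIs.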

How the data were processed

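The deposited matrices hold UMI counts per gene and cell, made by the authors on mm10/GRCm38 with Cell Ranger (3.0.0 per the file headers, 3.1.0 per the submitters' processing notes, with STAR and Seurat 4.2.0) and not normalized. Following the study's methods, cells under 100 genes were dropped, and the remaining cells had to hold between 200 and 5000 genes with mitochondrial counts under 7.5%. Genes seen in fewer than 10 cells of a library were left out of these cell measures alone, and all genes stayed in the sums. A cell joined a lineage with 3 of its marker genes detected (2 of 3 for T cells), plasma cells before B cells and T cells before ILC2, and cells of several other lineages (5.10%) or of none (3.42%) were left out. Doublets were not called otherwise. Of gated cells, 97.5% sat in a cluster (scanpy 1.11.5, 21 clusters) of the same lineage, a share that was lower for plasma cells (358 of 587). Within each library, the UMI counts of each type were added up. On these sums edgeR 4.0.16 (TMM, filterByExpr, quasi-likelihood, Benjamini-Hochberg) was run under R 4.3.3, with DESeq2 1.42.0 as an alternative. Tests between temperatures needed at least 20 cells of a type in each library. This minimum was not applied to the comparison of resident with Itgax or Trem2 macrophages, where the latter numbered 11, 15, 42 and 19 per library. Comparisons of cell types and interactions had library or temperature as factors. Exact intervals at 95% came from scipy 1.17.1, and a count of 0 was given a limit of 3 counts. Tgfb3 and Thbs1 in macrophages, which the filter kept through 1 temperature alone, are given as values without a test. Pmepa1 in resident macrophages and Itgb8 in DCs were also kept through 1 temperature alone. Their fits are printed but are no support for a change. Itgb8 in B cells against Foxp3-negative T cells was kept through 1 cell type alone. So were Tgfbr1 in resident against Itgax or Trem2 macrophages and, in DCs against macrophages, all members tested but Tgfb1 and Skil. These fits, too, are no support for a difference. A check of the code on simulated data used only genes above a minimum mean count and changes larger than most given here. It does not speak to the power of these tests. The members, lists and rules were chosen with earlier results of these data known. Named genes are all members, genes of the pathway list past the threshold and the 3 most alike genes per member. In resident macrophages and DCs only some of the pathway genes past the threshold are named. Alternatives were RLE size factors, DESeq2, no filter on low counts, a mitochondrial limit of 15%, strict gates, clusters in place of gates, cells with Mki67 or Top2a left out, the replicate number as a block and each library left out in turn.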

Additional observations from a re-analysis of the deposited data

Results flagged for a closer look

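The temperature effect on Tgfbr2 differed between cell types by the test of the interaction. It was higher in macrophages than in B cells by 0.88 ± 0.15 on the log2 scale (adjusted p = 0.00518, edgeR) and higher than in Foxp3-negative T cells by 0.95 ± 0.15 (adjusted p = 8.26e-07), and it was higher at 4 °C in 2 of 2 cold macrophage libraries.

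Itgb8 changed differently in Foxp3-positive and Foxp3-negative T cells, by 0.75 ± 0.18 (adjusted p = 0.0498, edgeR). The part of Foxp3 capture, which sets this split and may differ between temperatures, was not tested. Neither cell type passed the threshold on its own (adjusted p = 0.227 and 0.150), and without replicate 1 at 30 °C or at 4 °C the adjusted p value of the difference was 0.156 and 0.247. It was 0.132 with the mitochondrial limit of 15%, 0.0892 with strict gates and 0.118 without cycling cells.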

How the results depend on the processing

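Of 806 recomputed fold changes of members given in the text, 726 kept their direction and their side of the threshold, 30 moved past the threshold, 29 fell short of it and 21 changed sign. Over all 1509 recomputed fold changes of members in the cell types tested, 66 changed sign, none of them past the threshold in either fit (lowest adjusted p 0.262), and DESeq2 gave no adjusted p for 25 values. On the log2 scale, Tgfbr1 in macrophages was 0.26 with strict gates and 0.0189 with clusters in place of gates, and ran from -0.26 to 0.0919 with 1 library left out. Tgfbr2 in B cells was -0.00107 with RLE size factors and -0.000841 with DESeq2 and ran from -0.0752 to 0.0673 with 1 library left out, and Skil there ran from -0.0130 to 0.10. Tgfbr2 in Foxp3-positive T cells was -0.0244 with strict gates and -0.11 without cycling cells. Smad3 in Foxp3-positive against Foxp3-negative T cells was 0.0354 without cycling cells. In B cells against Foxp3-negative T cells, Pmepa1 was -0.00679 with DESeq2, -0.0871 with strict gates and -0.11 without cycling cells, and Smad7 was -0.0474 without cycling cells. With 1 library left out these ran from -0.35 to 0.38 for Pmepa1, from -0.00328 to 0.28 for Smad7 and from -0.15 to 0.11 for Tgfbr1. In B cells, the number of members called went from 2 to 4 with no filter on low counts, 1 with strict gates and 5 without cycling cells, and ran from 1 to 4 with 1 library left out. In Foxp3-positive T cells it ran from 1 to 3 and in Foxp3-negative T cells from 0 to 2 with 1 library left out, and the latter had 2 with no filter. In DCs it was 1 with no filter and ran from 0 to 1 with 1 library left out. With Tgfb3 counted, it went for the interaction of macrophages and B cells from 2 to 1 with DESeq2 and 4 without cycling cells, and for macrophages and Foxp3-negative T cells from 2 to 1 with DESeq2 and 4 with strict gates. For Foxp3-positive against Foxp3-negative T cells it went from 1 to 0 with DESeq2, with the mitochondrial limit of 15% and with strict gates, to 2 with no filter and to 3 with clusters in place of gates, and ran from 0 to 2 with 1 library left out. Where DESeq2 gave lower counts for these interactions, Tgfb3 and Itgb8 had no adjusted p value there. The cause of the other moves was not tested. With the replicate number as a block, 5 members passed in Foxp3-positive T cells and 2 in DCs, where the fit without it gave 3 and 0, and it changed the counts in no other cell type by over 1.5 times. The share of all genes called in each of these other fits is not given beside the counts of members, so that nothing is read from them. The labels do not say that a number marks a shared batch, and with 2 pairs the correlation of same-numbered deviations ran from -0.0936 in ILC2 to 0.226 in plasma cells. Not run for want of cells were the test of temperature in Itgax or Trem2 macrophages, strict gates in gamma-delta T cells and stromal cells, and gamma-delta T cells without cycling cells. Low counts limit Tgfb3, Itgb8 and Smad7 in cell types where they are rare, and lymphatic endothelial cells were too few for any test.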
